A study of Mus musculus with 21 samples.

Results

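Plexins, neuropilins and semaphorins were followed in mouse embryonic stem cells, the self-renewing cells grown from early mouse embryos. The 10 genes, of 22512 in the count table, were taken by symbol: the plexins Plxna1, Plxnb1, Plxnb2 and Plxnd1, the neuropilins Nrp1 and Nrp2, and the semaphorins Sema3f, Sema4b, Sema4d and Sema6a. Part of the list was chosen by measured values: Plxnb2 was named as a known TRIM71 target, and Sema3f was selected on its fall in T6B_WT against T6B_MUT. Plxnb2 in Trim71KO against W and Sema3f in T6B_WT against T6B_MUT are therefore described below without a test. The choice of Plxnb2 named no experiment, so its values in Trim71KO_empty are not independent of the choice either. The values, if any, that led to the other genes are not known, so they give no independent support for a pattern.

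Total RNA was sequenced in 7 groups of 3 libraries, and the design text calls the replicates biological. Every line descends from mES cells of 129S6/SvEvTac background with the yGlob reporter GFP_5xT71BS and a stably transfected FLAG-Cas9::T2A::Blasticidin construct, and was grown on gelatin in serum with LIF. In Experiment 1, W was that line untransfected, Trim71KO carried Trim71-/- and Ago2KO carried Ago2-/-. In Experiment 2, T6B_WT was the parental line transfected with pCIP FH-T6B_WT::mCherry and T6B_MUT with pCIP FH-T6B_MUT::mCherry, while Trim71KO_empty and Ago2KO_empty were the edited genotypes with an empty plasmid. T6B is a fragment of TNRC6B that binds Argonaute proteins and keeps them from the cell's own TNRC6 proteins, and the mutant was its control. No group of Experiment 2 was unedited with an empty plasmid, so genotype and plasmid cannot be told apart in the comparisons of its edited lines with T6B_MUT. The labels do not say how many clones each edited line comprises.

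Semaphorins are secreted or membrane-bound guidance ligands, and plexins are the receptors that pass their signal into the cell, chiefly to small GTPases and the cytoskeleton. Secreted class 3 semaphorins bind neuropilins, which have short cytoplasmic tails and work as co-receptors with A-type plexins or Plexin-D1, and neuropilins also bind VEGF. Class 4 semaphorins act mainly through B-type plexins, and class 6 semaphorins through A-type plexins. The family is best known from axon guidance and blood vessel patterning, and its members are also expressed in early embryonic cells.

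Library totals ran from 29.6 to 57.9 M counts. Ago2 was at 134 to 153 CPM (counts per M counts, scaled by TMM within each experiment) in W and at 39.8 to 43.6 CPM in Ago2KO, and Trim71 at 602 to 618 CPM in W and 412 to 459 CPM in Trim71KO. Trim71 was also lower in Ago2KO, at 504 to 522 CPM (log2 -0.25, edgeR adjusted p = 0.0016). In Experiment 2 it was at 482 to 503 CPM in T6B_MUT and 393 to 409 CPM in Trim71KO_empty (log2 -0.29, adjusted p = 0.012). T6B_WT, not edited at Trim71, had 417 to 445 CPM, not called against T6B_MUT (adjusted p = 0.10). The libraries labelled Ago2KO_empty had 87.4, 167 and 45.6 CPM of Ago2 in replicates 1, 2 and 3 against 113, 143 and 112 CPM in T6B_MUT. Replicate 2 went against its label, above every control, while replicates 1 and 3 lay below every control, and the group was not called lower (log2 -0.30, edgeR adjusted p = 0.60). Results that rest on this group are therefore given with and without replicate 2.

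Markers of cell types moved with the groups. The 8 embryonic stem cell markers summed to 5103 to 5394 CPM in Trim71KO against 4099 to 4319 in W, and to 5266 to 5422 in Trim71KO_empty against 4427 to 4488 in T6B_MUT, with 5 called higher and 1 lower in each. Their sums were 4417 to 4746 CPM in the other groups. The 8 primitive endoderm markers were called lower, 8 of 8, in both Trim71KO and Ago2KO, where their sum was 108 to 120 and 116 to 122 CPM against 192 to 214 CPM in W. In Experiment 2, 6 were called lower and 1 higher in Trim71KO_empty, where the sum was 234 to 276 CPM against 213 to 225 in T6B_MUT, 4 were lower in Ago2KO_empty, and 0 were called in T6B_WT. Most of these sums was Lama1, so they mainly follow that gene. Lama1 was at 142 to 163 CPM in W, 102 to 115 in Trim71KO and 105 to 109 in Ago2KO. It was at 183 to 195 CPM in T6B_MUT and 224 to 266 in Trim71KO_empty. The 5 neural markers summed to 135 to 159 CPM in Trim71KO and 137 to 151 in Ago2KO against 109 to 124 in W. In Trim71KO 3 were called higher and 1 lower, and in Ago2KO 3 higher. They summed to 124 to 133 CPM in T6B_WT, where 2 were higher, and 89.2 to 109.5 in the other groups of Experiment 2. In Trim71KO_empty 2 were called lower, and in Ago2KO_empty 1 higher and 1 lower. Most of the sum in W was Tubb3, at 84.3 to 96.8 CPM. Fibroblast feeder markers, 3 of 4 genes measured, summed to 10.5 to 11.6 CPM in Trim71KO against 7.15 to 7.68 in W. The higher sum came from Thy1, at no less than 9.66 CPM in Trim71KO and no more than 6.77 CPM in W. Col1a1 went the other way, at 0.437 to 0.627 CPM in Trim71KO against 0.808 to 0.909 CPM in W. Of 2 feeder markers tested in Trim71KO, 1 was called higher and 1 lower. In Experiment 2 the feeder markers summed to 2.73 to 9.38 CPM. Mesoderm and primitive streak markers, 4 of 5 genes measured, summed to 4.03 to 7.18 CPM over the libraries. Of all genes, 32.6% were called in Trim71KO, 18.0% in Ago2KO, 16.0% in T6B_WT, 27.8% in Trim71KO_empty and 28.8% in Ago2KO_empty, called meaning an edgeR adjusted p below 0.05. The part of these markers in the results below was not tested. In bulk samples, fewer cells of a type and less RNA per cell cannot be told apart.

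Matches to the seeds of microRNAs typical of embryonic stem cells were looked for in the longest annotated 3′ UTR of each gene, because Ago2 and T6B both act on microRNA silencing. MicroRNAs themselves were not measured. Mature sequences are from RefSeq (GRCm38.p6), with the seed, bases 2 to 8, in capitals. All 9 microRNAs searched matched the RefSeq table by name, and 2 are shown for each of the 2 seeds.
mmu-miR-294-3p: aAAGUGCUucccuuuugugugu
mmu-miR-302b-3p: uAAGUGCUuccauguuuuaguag
mmu-miR-17-5p: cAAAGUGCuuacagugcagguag
mmu-miR-20a-5p: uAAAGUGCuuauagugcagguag
The first seed, also that of miR-291a, miR-295 and miR-302d, pairs with AGCACTT. The second, also that of miR-93 and miR-106b, pairs with GCACTTT. The motifs overlap where AGCACTT is followed by T, and only the transcript strand was searched.

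Of the 10 genes, 3 held a match: Nrp2, Plxna1 and Sema4b. The windows, from GENCODE M21 transcripts on GRCm38, are shown on the transcript strand with the match in capitals because these are the only matches among the genes.
Nrp2, chr1:62796049-62796077, plus strand: gcctcgattttGCACTTTttttctcctcg
Nrp2, chr1:62796339-62796367, plus strand: acccgcccctaAGCACTTcacaacccaag
Nrp2, chr1:62798133-62798161, plus strand: tggcgtcacggAGCACTTtttgttgttgt
Plxna1, chr6:89317246-89317274, minus strand: gtttgttcgcaAGCACTTtagcatttctg
Sema4b, chr7:80226346-80226374, plus strand: tttaataagatGCACTTTactttcttttt
The third Nrp2 window and the Plxna1 window hold both motifs, 1 base apart. AGCACTT occurs in 16.9% and GCACTTT in 13.9% of 14583 longest 3′ UTRs, whose median length was 1133 bases. The 3′ UTR of Nrp2 is 3325 bases long, and 33.2% of UTRs of like length hold AGCACTT and 28.8% GCACTTT. For Plxna1, with 3062 bases, these shares were 31.9% and 26.8%. For the shorter UTR of Sema4b, 1192 bases, 11.2% of like UTRs hold GCACTTT. A match is a description of letters and not a site of action.

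The deposited RPKM, which take gene length into account, set the order of the genes in W. Sema4b led with 11.7 ± 0.601 RPKM (SD, n = 3), followed by Plxnb2 with 7.21 ± 0.462 and Plxna1 with 5.03 ± 0.245. Plxnb1 stood at 2.35 ± 0.122 RPKM and Nrp2 at 1.88 ± 0.137. Sema4d, at 1.55 ± 0.0798, and Sema3f, at 1.48 ± 0.0516, did not separate beyond their spread. Nrp1 (0.114 ± 0.0112), Plxnd1 (0.0793 ± 0.0142) and Sema6a (0.0410 ± 0.000768) were scarcely expressed. In T6B_MUT the 3 highest genes were the same in the same order, with 13.6, 10.9 and 4.85 RPKM. Differences in level between the experiments were not tested, because no group is common to both.

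**Figure D1:**
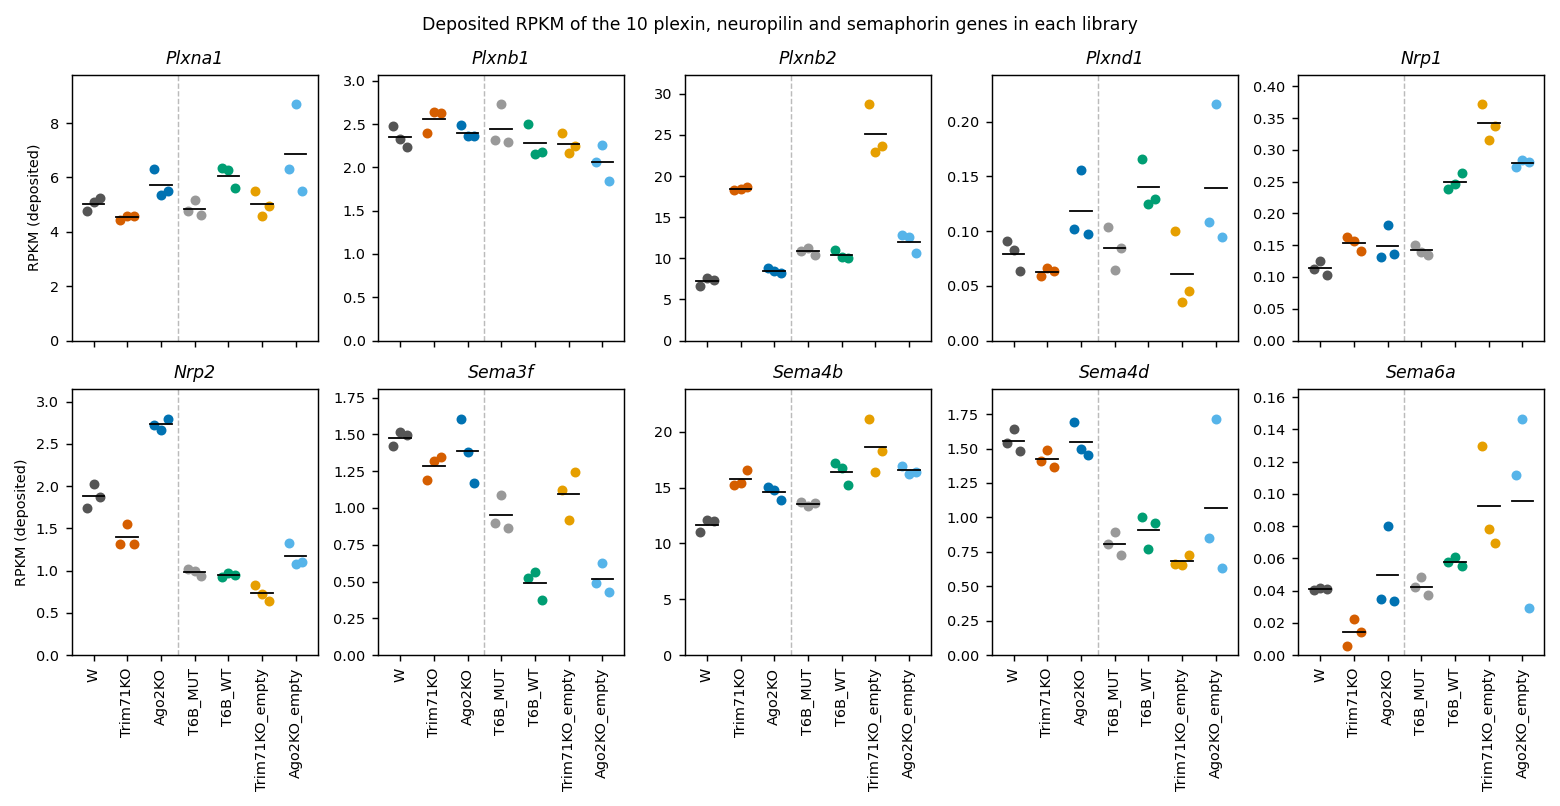
Deposited RPKM (vertical axis, linear, from 0) of the 10 genes in each of 21 libraries, by group; points are libraries, bars are group means and the dashed line separates the experiments. Plxnb2 is highest in the Trim71-edited groups, and Sema3f is lowest in T6B_WT and the libraries labelled Ago2KO_empty.

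All 10 genes passed the filter on low counts and were tested. Calls are those of edgeR's quasi-likelihood test below 0.05 after Benjamini-Hochberg adjustment over all genes. In Trim71KO against W, 4 of the 10 were called, Plxnb2 among them, where 32.6% of all genes were. In T6B_WT against T6B_MUT, 3 were called, Sema3f among them, where 16.0% of all genes were. Nothing is read from these counts, since both contrasts bear on the choice of genes. In Ago2KO against W, 3 of 10 were called, against 18.0% of all genes, and all 3 were higher, as were 10.2% of all genes. In Trim71KO_empty against T6B_MUT, 4 were called against 27.8%, and in the libraries labelled Ago2KO_empty against T6B_MUT, 6 against 28.8%. The counts of 3 and 4 lie near what their background shares give for 10 genes. Both include Plxnb2, and the count of 6 includes Sema3f. Nothing is read from these counts or from the medians below, since they share libraries with contrasts that bear on the choice of genes. In Ago2KO_empty, Sema6a was lost and Plxnb1 gained without its replicate 2, and the count of 6 was 3 without T6B_MUT replicate 1 or replicate 3. Median log2 fold changes of the 10 genes were 0.21, 0.13 and 0.36 in these 3 comparisons, against medians of 0.00, 0.00 and 0.03 over all genes. Comparisons within an experiment share their control libraries, so their counts are not independent.

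**Figure D2:**
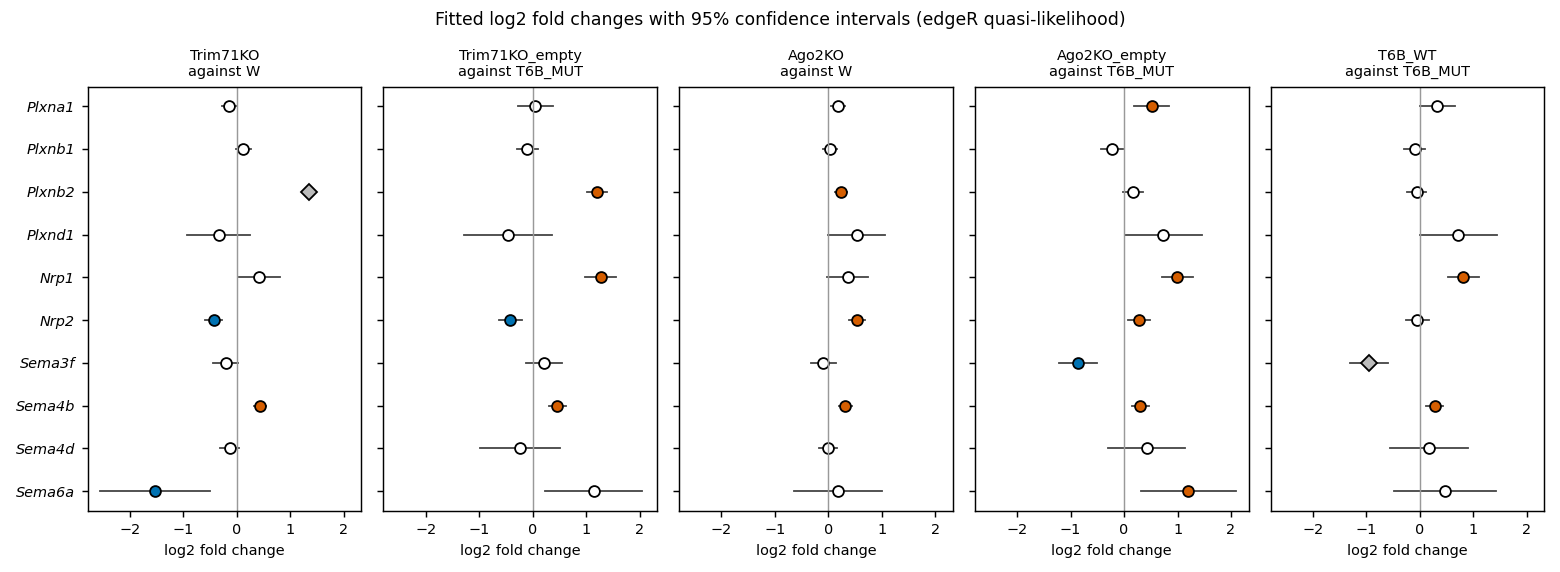
Log2 fold changes (horizontal axis) of the 10 genes in 5 comparisons with a control, with 95% confidence intervals; orange points were called higher, blue points lower and white points were not called. Grey diamonds mark Plxnb2 in Trim71KO and Sema3f in T6B_WT, which bear on the choice of genes and carry no test. Plxnb2 in Trim71KO_empty is drawn with its call, though it is not independent of that choice.

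Plxnb2, which encodes the semaphorin receptor Plexin-B2, had the largest rise of the 10 genes in Trim71KO. It is annotated as protein-coding at chr15:89155549-89180788 on the minus strand (ENSMUSG00000036606) and overlaps the microRNA gene Mir7118 on its own strand. Plxnb2 stood at 51.2, 57.5 and 56.1 CPM in W and at 139, 140 and 142 CPM in Trim71KO. Every Trim71KO library thus lay far above every W library, 2.56-fold on the fitted scale (log2 fold change 1.36, SE 0.05). The gene was chosen as a known TRIM71 target, so this contrast carries no test.

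The choice of Plxnb2 as a known TRIM71 target named no experiment. Its tests in Trim71KO_empty therefore give no support independent of that choice. Plxnb2 stood at 84.9, 88.7 and 81.3 CPM in T6B_MUT and at 226, 180 and 184 CPM in Trim71KO_empty. The groups did not overlap, and Plxnb2 was 2.32-fold higher in Trim71KO_empty (log2 fold change 1.21, SE 0.09, edgeR adjusted p = 1.9e-08). Against the libraries labelled Ago2KO_empty, which carry the same empty plasmid and had 101, 101 and 83.4 CPM, it was 2.07-fold higher (log2 1.05, SE 0.09, adjusted p = 7.3e-08). Without replicate 2 of that group the log2 difference was 1.10. The difference between the fold changes of the experiments was 0.14 (SE 0.11).

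Outside Trim71-edited cells Plxnb2 differed little from its controls. In Ago2KO it had 66.4, 64.8 and 62.2 CPM, above every W library but by only 1.17-fold (log2 0.23, SE 0.05, edgeR adjusted p = 0.0070). In T6B_WT it had 85.8, 79.0 and 79.5 CPM, with the first inside the range of T6B_MUT and the other 2 just under it. The log2 fold change there was -0.06, with a 95% interval from -0.25 to 0.12 and an adjusted p of 0.71. In the libraries labelled Ago2KO_empty it was 0.17 (adjusted p = 0.17), and 0.10 (adjusted p = 0.46) without replicate 2. Without replicate 3 of that group it was called, at 0.23 (adjusted p = 0.034). The longest 3′ UTR of Plxnb2, 732 bases, held neither seed match. Of UTRs of like length, 8.12% hold AGCACTT and 6.94% GCACTTT.

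The other B-type plexin measured, Plxnb1, is a receptor for Sema4d. It lies at chr9:109095389-109119917 on the plus strand (ENSMUSG00000053646), with the antisense gene Gm7628 opposite, and was called in 0 of 5 comparisons with a control by edgeR, and in 0 by DESeq2, with an unadjusted p under 0.05 in 1. Its libraries ran from 17.9 CPM in Ago2KO_empty to 26.6 CPM in T6B_MUT, so that all groups lay close together. The log2 fold change was 0.12 in Trim71KO, with a 95% interval from -0.02 to 0.26, and -0.10 in Trim71KO_empty, with an interval from -0.30 to 0.10. In Ago2KO_empty, so labelled, the value was -0.23 (edgeR adjusted p = 0.078), and without replicate 2 of that group it was called, at -0.33 (adjusted p = 0.017).

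Plxna1, a signalling partner of both neuropilins, differed between the knockouts of Ago2 and Trim71. It lies at chr6:89316314-89362620 on the minus strand (ENSMUSG00000030084), opposite the genes Gm26811 and Gm44207. It stood at 42.7, 45.3 and 46.7 CPM in W, at 56.1, 47.9 and 49.1 CPM in Ago2KO and at 39.7, 40.9 and 40.8 CPM in Trim71KO. All Ago2KO libraries lay above W and all Trim71KO libraries below it, but neither passed the test, with log2 fold changes of 0.19 (SE 0.06, edgeR adjusted p = 0.055) and -0.15 (SE 0.06, adjusted p = 0.086). The test of one knockout against the other did pass, with Plxna1 lower in Trim71KO by a log2 difference of -0.34 (SE 0.06, adjusted p = 0.00078). In that comparison 5 of the 10 genes were called, against 34.2% of all genes. Plxnb2, which the choice named, is among them, so nothing is read from that count.

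In Experiment 2, Plxna1 had 43.8, 47.7 and 42.1 CPM in T6B_MUT, 58.1, 57.6 and 51.7 CPM in T6B_WT and 58.7, 82.0 and 50.5 CPM in the libraries labelled Ago2KO_empty. Both sets lay above every T6B_MUT library. The rise in Ago2KO_empty was called (log2 0.52, SE 0.15, edgeR adjusted p = 0.023), while the value of 0.33 in T6B_WT did not pass (SE 0.15, adjusted p = 0.17). Without Ago2KO_empty replicate 2, the highest library, the first value was 0.28 (SE 0.09, adjusted p = 0.023). It lost its call without T6B_MUT replicate 1 or 3, at adjusted p = 0.064 and 0.077. Fits of only the 2 groups compared turned both calls round, with T6B_WT called (0.32, adjusted p = 0.00056) and Ago2KO_empty not (0.52, adjusted p = 0.096). Trim71KO_empty, with 50.6, 42.3 and 45.0 CPM, overlapped T6B_MUT.

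Plxnd1, the receptor with which Sema3e acts in vessels, was barely detected. It lies at chr6:115954811-115995005 on the minus strand (ENSMUSG00000030123) with no overlapping gene, and its libraries held 9 to 60 counts. CPM were 0.661, 0.596 and 0.457 in W, 0.427, 0.473 and 0.458 in Trim71KO and 0.728, 1.12 and 0.703 in Ago2KO. Ago2KO lay above W in every library without passing the test (log2 0.53, SE 0.25, edgeR adjusted p = 0.17). The knockouts differed from each other, with Plxnd1 lower in Trim71KO (log2 -0.87, SE 0.27, adjusted p = 0.020). That call was lost without Trim71KO replicate 1 (adjusted p = 0.062) or Ago2KO replicate 2 (adjusted p = 0.082).

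In Experiment 2, Plxnd1 had 0.746, 0.263 and 0.335 CPM in Trim71KO_empty and 0.809, 1.64 and 0.701 CPM in Ago2KO_empty. The groups overlapped, and the log2 difference was -1.19 (SE 0.38, edgeR adjusted p = 0.023). The highest value was that of replicate 2 of the libraries labelled Ago2KO_empty, and the difference was -0.72 (SE 0.36, adjusted p = 0.15) without it. The call was also lost without Trim71KO_empty replicate 2 (-0.91, adjusted p = 0.095) or 3 (-0.999, adjusted p = 0.093), and in a fit of only the 2 groups (adjusted p = 0.082). In this comparison, 5 of the 10 genes were called, against 31.6% of all genes. Plxnb2 and Sema3f, which the choice named, are among them, so nothing is read from this count.

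Nrp1 and Nrp2, the 2 neuropilins, moved in different ways. Nrp1 binds Sema3a and VEGF-A, and in these cells it was a low gene that rose in all 3 non-control groups of Experiment 2. It lies at chr8:128358604-128503363 on the plus strand (ENSMUSG00000025810) and contains the microRNA gene Mir1903. It had 1.49, 1.39 and 1.33 CPM in T6B_MUT, 2.36, 2.44 and 2.63 CPM in T6B_WT, 2.75, 2.90 and 2.78 CPM in the libraries labelled Ago2KO_empty and 3.70, 3.15 and 3.32 CPM in Trim71KO_empty. No library of these 3 groups reached down to the control, and the spread within each group was small beside the distance.

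The rise of Nrp1 was 1.76-fold in T6B_WT (log2 0.81, SE 0.14, edgeR adjusted p = 0.00056). It was 2.00-fold in Ago2KO_empty (log2 1.00, SE 0.14, adjusted p = 5.1e-05), and 0.96 on the log2 scale without replicate 2. In Trim71KO_empty it was 2.42-fold (log2 1.27, SE 0.14, adjusted p = 1.9e-06). These calls held under all 12 alternatives of each comparison. The 3 groups share T6B_MUT as control. Trim71KO_empty and Ago2KO_empty did not differ in Nrp1 beyond the test, with a log2 difference of 0.27, a 95% interval from -0.00405 to 0.55 and adjusted p = 0.13.

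In Experiment 1 Nrp1 was not called against W. It had 1.09, 1.21 and 0.998 CPM in W, 1.58, 1.50 and 1.35 CPM in Trim71KO and 1.26, 1.75 and 1.31 CPM in Ago2KO. Both knockouts lay above every W library, but with log2 fold changes of 0.42 (SE 0.18, edgeR adjusted p = 0.091) and 0.36 (SE 0.18, adjusted p = 0.20) neither passed. The difference between the Trim71 effects of the experiments was itself called, at -0.85 (SE 0.21, adjusted p = 0.0089). For the Ago2 effects it was -0.63 (SE 0.21, adjusted p = 0.14). Of the 10 genes, 2 were called in the difference of Trim71 effects, against 10.1% of all genes, and 1 in the difference of Ago2 effects, against 2.13%. Nothing is read from these counts, since both differences contain libraries of contrasts that bear on the choice of genes.

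Other values were looked at beside those of Nrp1. The 1060 tested genes of chromosome 8 had a median of 0.19 on the log2 scale in Trim71KO against W, where the median of all genes was 0.00. In Trim71KO_empty the median of that chromosome was 0.09, and in T6B_WT -0.02. The 5 endothelial markers, among them Kdr, summed to 92.6 to 96.5 CPM in T6B_MUT, 132 to 140 in T6B_WT, 136 to 156 in Ago2KO_empty and 93.2 to 116 in Trim71KO_empty. In T6B_WT 4 of these 5 were called higher, and 3 of 5 in each of the other 2 groups. In Experiment 1, where Nrp1 was not called, the markers summed to 49.2 to 50.2 CPM in W, 48.9 to 49.8 in Trim71KO and 68.0 to 75.9 in Ago2KO. Of 4 tested there, 2 were called higher and 1 lower in Trim71KO, and 3 higher and 1 lower in Ago2KO. Most of the sum was Pecam1 and Tek, while Cdh5 and Tie1, which define endothelium, were at most at 1.14 CPM in any library. The part of chromosome 8 and of these markers in the Nrp1 result was not tested.

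Nrp2, the co-receptor preferred by Sema3f, moved in opposite directions in the knockouts. It lies at chr1:62703285-62818695 on the plus strand (ENSMUSG00000025969), and overlaps Gm37121 on its strand and Gm29083 on the other. It had 20.5, 23.6 and 21.9 CPM in W, 15.4, 18.1 and 15.4 CPM in Trim71KO and 31.7, 31.1 and 32.7 CPM in Ago2KO. The 3 groups were fully separated, with Trim71KO lowest and Ago2KO highest. Nrp2 fell in Trim71KO (log2 -0.43, SE 0.08, edgeR adjusted p = 0.00047) and rose in Ago2KO (log2 0.54, SE 0.07, adjusted p = 0.00015). Between the knockouts the log2 difference was -0.97 (SE 0.08, adjusted p = 2.0e-07).

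In Experiment 2, Nrp2 had 12.2, 11.965 and 11.2 CPM in T6B_MUT, 9.98, 8.73 and 7.65 CPM in Trim71KO_empty and 16.2, 13.3 and 13.2 CPM in the libraries labelled Ago2KO_empty. The order was the same as in Experiment 1, and the groups again did not overlap. Nrp2 fell in Trim71KO_empty (log2 -0.42, SE 0.10, edgeR adjusted p = 0.0053), close to its fall in Experiment 1, with a difference between experiments of -0.02 and a 95% interval from -0.29 to 0.26. It rose in Ago2KO_empty (log2 0.28, SE 0.10, adjusted p = 0.047), and the call held without replicate 2, at 0.30 (adjusted p = 0.044), but not without replicate 1, at 0.16 (adjusted p = 0.32). It was also lost without any 1 of T6B_MUT replicates 1, 2 and 3, at adjusted p = 0.11, 0.11 and 0.20, with RLE size factors (0.060), with DESeq2 (0.068), with no filter on low counts (0.068) and in a fit of only the 2 groups (0.053), so that 4 of 12 alternatives kept it. Between Trim71KO_empty and the libraries labelled Ago2KO_empty the log2 difference was -0.70 (SE 0.10, adjusted p = 4.6e-05), and -0.73 without replicate 2.

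T6B did not move Nrp2 detectably. T6B_WT had 11.1, 11.7 and 11.4 CPM, inside the spread of T6B_MUT but for 1 library, and the log2 fold change was -0.05, with a 95% interval from -0.26 to 0.17. The effect of T6B was lower than that of Ago2KO by a log2 difference of -0.58 (SE 0.13, edgeR adjusted p = 0.0083), a comparison across the 2 experiments through their own controls. It was called under all 17 alternatives. Of the 10 genes, 2 were called in this difference, against 3.16% of all genes, and nothing is read from that count, since the difference contains the contrast that chose Sema3f. Nrp2 is the gene with 3 windows of seed matches shown above.

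Sema3f encodes a secreted class 3 semaphorin that signals through Nrp2. It lies at chr9:107681500-107710475 on the minus strand (ENSMUSG00000034684) with no overlapping gene, and its longest 3′ UTR, of 929 bases, held neither seed match. It had 4.73, 5.75 and 4.54 CPM in T6B_MUT and 2.78, 2.96 and 2.00 CPM in T6B_WT. Every T6B_WT library lay below every control, at 0.52 of its level on the fitted scale (log2 -0.95, SE 0.17). This is the contrast that chose Sema3f, so it carries no test.

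The libraries labelled Ago2KO_empty had 2.62, 3.39 and 2.26 CPM of Sema3f, in the range of T6B_WT. The log2 fold change against T6B_MUT was -0.86 (SE 0.17, edgeR adjusted p = 0.0011), and -1.05 (SE 0.18, adjusted p = 0.00025) without replicate 2. This test shares its control with the contrast that chose the gene. A test free of that control set Trim71KO_empty, with 5.94, 4.88 and 6.53 CPM, against Ago2KO_empty, and Sema3f was 2.10-fold higher in the former (log2 1.07, SE 0.17, adjusted p = 8.7e-05). Without replicate 2 that difference was 1.25. Trim71KO_empty and T6B_MUT overlapped, with a log2 fold change of 0.21 (adjusted p = 0.34).

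Sema3f behaved otherwise in Experiment 1, where it had 7.31, 7.77 and 7.65 CPM in W, 8.20, 7.07 and 5.997 CPM in Ago2KO and 6.10, 6.73 and 6.89 CPM in Trim71KO. Ago2KO libraries lay on both sides of W, and the log2 fold change was -0.10, with a 95% interval from -0.33 to 0.14 and an edgeR adjusted p of 0.60. That interval does not reach the value of -0.86 in Ago2KO_empty, but that value has an SE of 0.17 of its own, so this is no test of a difference. Trim71KO lay below W in every library, at -0.20 (SE 0.11, adjusted p = 0.17). The Ago2 effects of the experiments differed by 0.77 (SE 0.21, adjusted p = 0.049), and by 0.93 (adjusted p = 0.016) without Ago2KO_empty replicate 2. This difference contains the T6B_MUT libraries of the contrast that chose the gene, so its test is not free of that choice. The call sat at the threshold: it was lost without any 1 of W replicates 1 to 3, Ago2KO replicates 1 and 2, T6B_MUT replicates 1 to 3 or Ago2KO_empty replicates 1 and 3, at adjusted p from 0.050 to 0.16, and held under 5 of 17 alternatives in all. The T6B effect was lower than the Ago2KO effect by -0.85 (SE 0.21), given without a test since it contains the contrast that chose the gene.

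**Figure D3:**
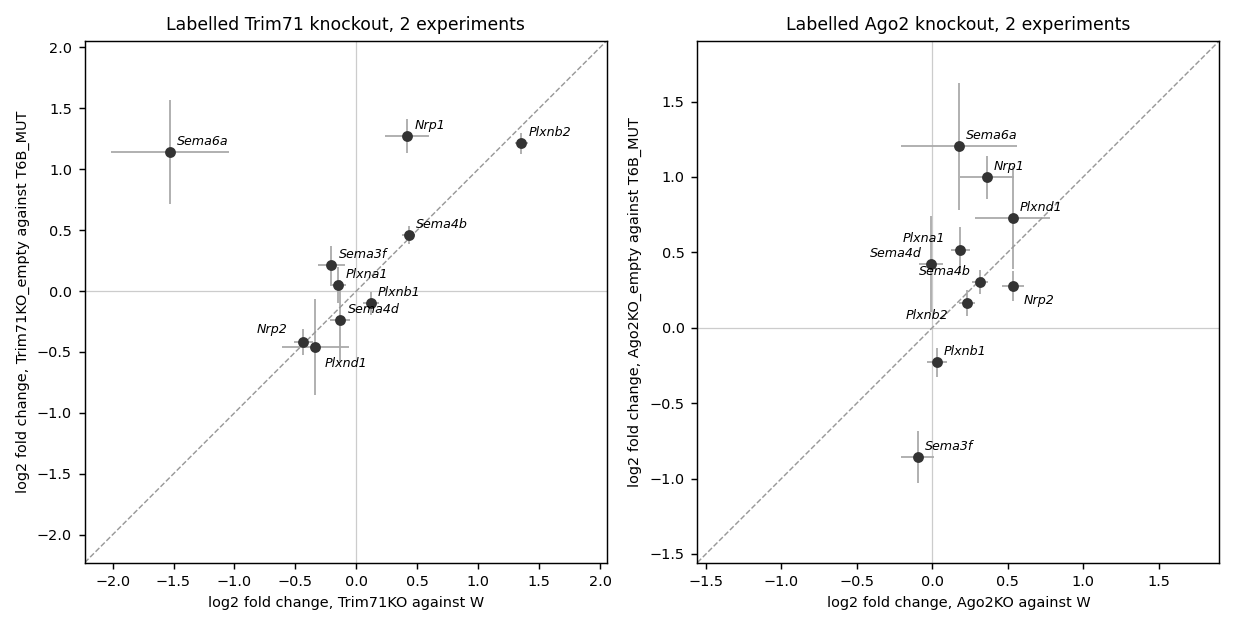
Log2 fold change of each of the 10 genes in Experiment 1 (horizontal axis) and Experiment 2 (vertical axis), for the lines labelled as Trim71 knockouts (left) and as Ago2 knockouts (right); bars are standard errors and the dashed line marks equal values. Plxnb2 and Sema4b lie near the line on the left, while Nrp1 and Sema6a lie above it and Sema3f lies below it on the right.

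Sema4b encodes a membrane-bound class 4 semaphorin and was the most abundant of the 10 genes per length. It lies at chr7:80186841-80226527 on the plus strand (ENSMUSG00000030539), and overlaps Gm45206 on its strand. It had 61.5, 67.0 and 66.7 CPM in W, 85.1, 85.6 and 92.2 CPM in Trim71KO and 83.3, 82.5 and 77.3 CPM in Ago2KO. Both knockouts lay above every W library, with little spread. Sema4b rose 1.35-fold in Trim71KO (log2 0.43, SE 0.06, edgeR adjusted p = 3.2e-05) and 1.24-fold in Ago2KO (log2 0.32, SE 0.06, adjusted p = 0.0011).

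In Experiment 2, Sema4b had 78.3, 76.8 and 77.5 CPM in T6B_MUT, 98.2, 95.6 and 87.7 CPM in T6B_WT, 122, 94.1 and 104 CPM in Trim71KO_empty and 98.1, 95.5 and 93.7 CPM in Ago2KO_empty. All 3 groups lay above the control. Log2 fold changes were 0.27 in T6B_WT (edgeR adjusted p = 0.020), 0.46 in Trim71KO_empty (adjusted p = 0.00020) and 0.30 in Ago2KO_empty (adjusted p = 0.0068), with an SE of 0.08 each. Without Ago2KO_empty replicate 2 the last was 0.29 (adjusted p = 0.015). The T6B_WT call was lost without T6B_WT replicate 1 or 2 or any 1 of T6B_MUT replicates 1 to 3, at adjusted p from 0.071 to 0.10. Sema4b was thus called higher in 5 of 5 comparisons with a control, a count that rests on 2 sets of shared controls.

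The sizes of the Sema4b changes were alike in the experiments. The Trim71 effects differed by -0.03, with a 95% interval from -0.24 to 0.17, and the Ago2 effects by 0.02, with an interval from -0.18 to 0.23. The T6B effect differed from the Ago2KO effect by -0.04, with an interval from -0.24 to 0.16. The single match to the miR-17 seed in its 3′ UTR is shown above.

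Sema4d, the class 4 ligand of Plexin-B1, was called in 0 of 5 comparisons with a control by edgeR and in 0 by DESeq2, and its unadjusted p was under 0.05 in 0. It lies at chr13:51685529-51793747 on the minus strand (ENSMUSG00000021451), opposite Gm23566. In Experiment 1 its libraries ran from 10.3 CPM in Trim71KO to 12.8 CPM in Ago2KO, around 11.7, 12.4 and 11.2 CPM in W. The log2 fold change in Ago2KO was -0.01, with a 95% interval from -0.18 to 0.17. In Experiment 2 the spread was wide, because Ago2KO_empty replicate 2 had 13.7 CPM against 6.67 and 4.91 CPM in the other 2 replicates. The log2 fold change of that group was 0.42 (SE 0.32) with that library and -0.13 (SE 0.14) without it, not called either way.

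Sema6a, a membrane-bound ligand of A-type plexins, was at the edge of detection. It lies on the minus strand (ENSMUSG00000019647) with no overlapping gene. Counts were 17, 17 and 17 in W and 2, 7 and 6 in Trim71KO, or 0.351, 0.362 and 0.353 CPM against 0.0502, 0.195 and 0.125 CPM. All Trim71KO libraries lay below W, and Sema6a was called lower (log2 -1.53, SE 0.48, edgeR adjusted p = 0.025). The call was lost without W replicate 2 (adjusted p = 0.059), W replicate 3 (adjusted p = 0.055) or Trim71KO replicate 1 (adjusted p = 0.11). Ago2KO, with 14, 21 and 15 counts, spanned W.

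In Experiment 2 the direction of Sema6a under Trim71 editing was the opposite. It had 19, 18 and 19 counts in T6B_MUT, or 0.373, 0.432 and 0.329 CPM, and 45, 24 and 22 counts in Trim71KO_empty, or 1.16, 0.701 and 0.614 CPM. The groups did not overlap, but the log2 fold change of 1.14 (SE 0.43) did not pass the test (edgeR adjusted p = 0.057). It was called with DESeq2 (adjusted p = 0.037), in a fit of only the 2 groups (adjusted p = 0.0057) and with a replicate block (adjusted p = 0.034). The difference between the Trim71 effects was -2.67 (SE 0.69, adjusted p = 0.013) and was called under all 17 alternatives. In the libraries labelled Ago2KO_empty, counts of 41, 49 and 10 gave 1.204 on the log2 scale (SE 0.42, edgeR adjusted p = 0.042), although replicate 3 lay below every control. Without replicate 2 it was 0.75 (SE 0.42, adjusted p = 0.21). The call was also lost without replicate 1 (adjusted p = 0.14) and without T6B_MUT replicate 1, 2 or 3 (adjusted p = 0.11, 0.075 and 0.13), and in a fit of only the 2 groups (adjusted p = 0.12).

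The rest of the pathway was read from lists of related genes. Of 16 other semaphorins of classes 3 to 7, 14 were tested in Experiment 1 and 15 in Experiment 2. In Trim71KO 5 were called higher and 1 lower, and in Trim71KO_empty 2 higher and 2 lower. In Ago2KO 4 were called, in T6B_WT 5 and in Ago2KO_empty 4, each of them higher. Of all genes, 32.6% were called in Trim71KO, 27.8% in Trim71KO_empty, 18.0% in Ago2KO, 16.0% in T6B_WT and 28.8% in Ago2KO_empty. The median log2 fold change of these semaphorins was 0.07 in Trim71KO, -0.16 in Trim71KO_empty, 0.20 in Ago2KO, 0.17 in T6B_WT and 0.22 in Ago2KO_empty, against medians of all genes between -0.00 and 0.03.

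Sema3e, the ligand of Plexin-D1, fell in both Trim71-edited groups. It went from 7.82 ± 1.06 CPM (SD, n = 3) in W to 3.29 ± 0.323 in Trim71KO (log2 -1.25, edgeR adjusted p = 2.1e-06), and from 5.28 ± 0.0724 in T6B_MUT to 1.70 ± 0.340 in Trim71KO_empty (log2 -1.63, adjusted p = 2.7e-07). In T6B_WT it rose, by 0.84 on the log2 scale (adjusted p = 0.00015). Sema5b, a transmembrane semaphorin, rose from 14.5 ± 0.968 CPM in W to 35.5 ± 4.39 in Trim71KO (log2 1.30, adjusted p = 5.5e-08) and 21.7 ± 1.36 in Ago2KO (log2 0.59, adjusted p = 0.00032). It rose in Trim71KO_empty too (log2 0.37, adjusted p = 0.0063). The secreted Sema3b rose in Trim71KO and Ago2KO, by 1.21 (adjusted p = 4.6e-06) and 0.82 (adjusted p = 0.00046) on the log2 scale. It also rose in Trim71KO_empty by 0.41 (adjusted p = 0.028) and in T6B_WT by 0.53 (adjusted p = 0.0094).

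The class 3 gene Sema3d, also called higher in Trim71KO, rose from 1.07 ± 0.230 CPM in W to 2.22 ± 0.266 in Ago2KO (log2 1.06, edgeR adjusted p = 0.00093). From 1.19 ± 0.150 CPM in T6B_MUT it reached 2.89 ± 0.452 in T6B_WT (log2 1.28, adjusted p = 0.00014) and 3.14 ± 0.304 in Ago2KO_empty (log2 1.40, adjusted p = 3.7e-05). Sema7a, a GPI-anchored semaphorin, rose from 3.35 ± 0.168 CPM in T6B_MUT to 6.10 ± 0.139 in T6B_WT (log2 0.87, adjusted p = 7.5e-05) and 6.50 ± 0.394 in Ago2KO_empty (log2 0.96, adjusted p = 1.8e-05). It rose in Ago2KO too (log2 0.51, adjusted p = 0.0092). Sema3c rose in T6B_WT and Ago2KO_empty by 0.99 (adjusted p = 0.0010) and 0.59 (adjusted p = 0.027), and Sema5a fell in Trim71KO_empty by 0.95 on the log2 scale (adjusted p = 0.041).

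**Figure D4:**
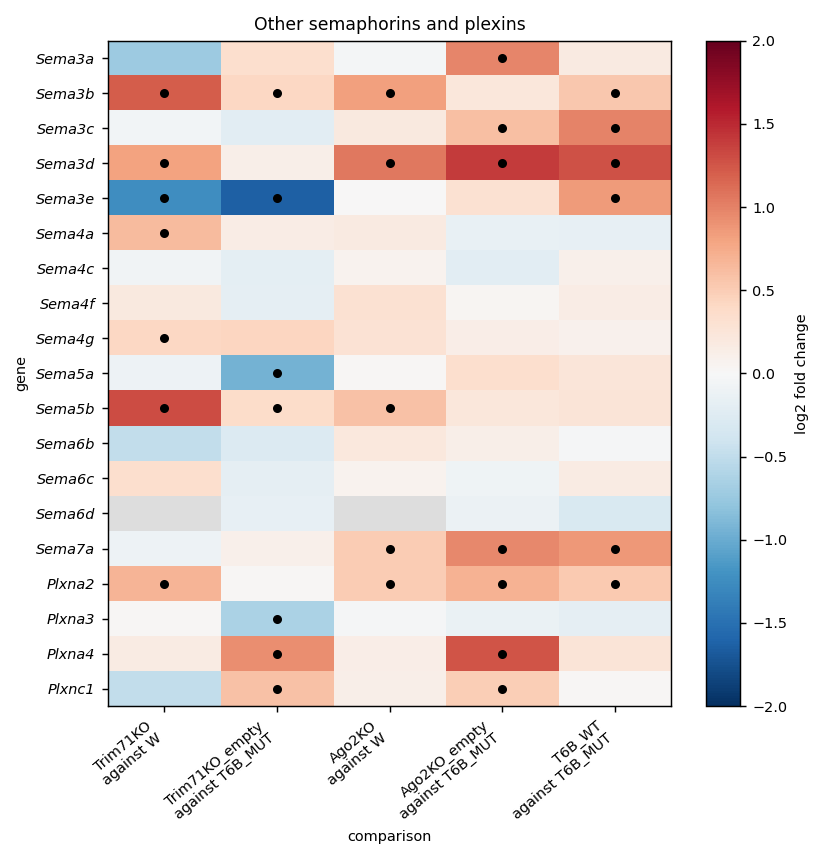
Log2 fold changes (colour, red higher and blue lower) of the other semaphorins and plexins tested, 1 row a gene and 1 column a comparison with a control; black dots mark calls and grey cells genes not tested. Sema3e is blue in both Trim71-edited columns, and Sema3d is red in the Ago2KO, Ago2KO_empty and T6B_WT columns.

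Of 5 other plexins, 4 were in the table and tested, and Plxnb3 was not analysed here. In Trim71KO, Ago2KO and T6B_WT 1 was called higher in each, where 32.6%, 18.0% and 16.0% of all genes were called, and it was Plxna2 each time, by 0.68 (edgeR adjusted p = 0.00057), 0.50 (adjusted p = 0.010) and 0.52 (adjusted p = 0.028) on the log2 scale. In Trim71KO_empty 2 were higher, Plxna4 by 0.92 (adjusted p = 0.0041) and Plxnc1, the receptor of Sema7a, by 0.59 (adjusted p = 0.0072), and 1 was lower, Plxna3 (log2 -0.63, adjusted p = 0.00056), where 27.8% of all genes were called. In Ago2KO_empty 3 were higher, Plxna4 by 1.26 (adjusted p = 0.00032), Plxna2 by 0.70 (adjusted p = 0.0028) and Plxnc1 by 0.49 (adjusted p = 0.022), where 28.8% of all genes were called.

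Among 10 tested co-receptors and partner receptors, of 11 listed, 5 were called higher and 2 lower in Trim71KO, against 32.6% of all genes called, and 4 were called in Ago2KO, each higher, against 18.0%. In T6B_WT 2 were higher and 1 lower, against 16.0%. In Trim71KO_empty 4 were called, each higher, against 27.8%, and in Ago2KO_empty 4 were higher and 1 lower, against 28.8%. Kdr, the VEGF receptor that pairs with Nrp1, fell in Trim71KO from 3.77 ± 0.230 CPM (SD, n = 3) in W to 1.89 ± 0.327 (log2 -0.99, edgeR adjusted p = 4.3e-05). It rose to 9.12 ± 0.610 CPM in Ago2KO (log2 1.27, adjusted p = 2.7e-06), and from 1.47 ± 0.164 in T6B_MUT to 4.43 ± 0.499 in T6B_WT (log2 1.60, adjusted p = 3.5e-06). It rose in Trim71KO_empty and Ago2KO_empty too, by 0.76 (adjusted p = 0.0040) and 1.77 (adjusted p = 7.0e-07) on the log2 scale.

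Nrcam, an adhesion molecule that joins neuropilin complexes, rose from 0.984 ± 0.159 CPM in T6B_MUT to 4.65 ± 0.147 in T6B_WT (log2 2.23, edgeR adjusted p = 1.1e-08) and 4.54 ± 0.206 in Ago2KO_empty (log2 2.20, adjusted p = 1.3e-08). It was called higher in Ago2KO too (log2 1.39, adjusted p = 0.0016). L1cam, another such adhesion molecule, rose in Trim71KO by 0.48 (adjusted p = 0.0074) and in Ago2KO by 0.68 (adjusted p = 0.0011). Cntn2 fell in T6B_WT and Ago2KO_empty (log2 -0.36 and -0.59, adjusted p = 0.0057 and 5.9e-05). It rose in Trim71KO by 0.41 (adjusted p = 0.0032) and in Trim71KO_empty by 0.29 (adjusted p = 0.013).

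All 34 genes listed for signalling downstream of plexins were tested. In Trim71KO 8 were higher and 7 lower, where 32.6% of all genes were called, and in Ago2KO 8 and 2, where 18.0% were. In T6B_WT 5 were higher and 3 lower (16.0% of all genes called), in Trim71KO_empty 5 and 11 (27.8%), and in Ago2KO_empty 6 and 4 (28.8%). Crmp1, a collapsin response mediator protein that relays class 3 signals, fell in Trim71KO from 34.0 ± 1.42 CPM (SD, n = 3) to 14.9 ± 0.676 (log2 -1.19, edgeR adjusted p = 2.3e-08) and in Trim71KO_empty from 10.5 ± 1.26 to 4.85 ± 1.06 (log2 -1.12, adjusted p = 1.3e-05). In T6B_WT it rose by 0.44 (adjusted p = 0.025). Dpysl3, of the same family, rose in Ago2KO by 0.76 (adjusted p = 7.9e-06), in T6B_WT by 0.97 (adjusted p = 6.5e-08) and in Ago2KO_empty by 0.86 (adjusted p = 2.3e-07), and fell in Trim71KO_empty (log2 -0.56, adjusted p = 2.7e-05). Mras, a Ras-type GTPase, rose in Trim71KO from 63.9 ± 2.56 to 116 ± 4.16 CPM (log2 0.87, adjusted p = 2.3e-08). It rose less in Ago2KO, by 0.27 (adjusted p = 0.0023), and in Trim71KO_empty, by 0.41 (adjusted p = 2.8e-05).

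Of 5 other ligands of neuropilins, all tested, Vegfc rose in Trim71KO by 0.48 (edgeR adjusted p = 3.8e-05), in Ago2KO by 0.41 (adjusted p = 0.00037), in Trim71KO_empty by 0.56 (adjusted p = 6.3e-06) and in Ago2KO_empty by 0.55 (adjusted p = 1.2e-05). Vegfa, which binds Nrp1, fell in T6B_WT (log2 -0.42, adjusted p = 0.0020) and rose in Trim71KO_empty by 0.60 (adjusted p = 2.8e-05). Vegfb fell in Trim71KO_empty (log2 -0.44, adjusted p = 0.011). The 5 ligands thus gave 1 call in each comparison with a control except 3 in Trim71KO_empty, where shares of all genes called were 32.6% in Trim71KO, 18.0% in Ago2KO, 16.0% in T6B_WT, 27.8% in Trim71KO_empty and 28.8% in Ago2KO_empty.

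Likeness of profile was measured as Pearson's correlation of log2 CPM over the 21 libraries, after the mean of each experiment was subtracted, among 12872 genes. It is a description, since libraries of a group share their treatment. The 5 genes most like Plxnb2 were Atp2a3 (r = 0.984), Mbnl1 (r = 0.976), Ankrd10 (r = 0.976), Slco4a1 (r = 0.972) and Kcnh3 (r = 0.971). Those most like Sema3f were Cep89 (r = 0.910), Plekhg5 (r = 0.910), Rasgrp2 (r = 0.896), Eml2 (r = 0.894) and Cyhr1 (r = 0.893). Among the 10 genes, Nrp1 and Sema4b were the most alike (r = 0.799), and Plxnb2 and Nrp2 the most opposed (r = -0.693).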

How the data were processed

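The authors deposited 1 table of 22512 genes, which per the file headers holds, per library (21 in all), raw counts and RPKM, next to a QuasR gene length. Counts were used as deposited for all tests, and the deposited RPKM, which the authors scaled by gene length and library size, only for levels. The submitters' processing notes name STAR 2.7.3a, bcl2fastq 2.17 and GRCm38 (mm10). The annotation, the use of strand in counting and the gene filter are not given in the sources used here, so genes that overlap another gene are uncertain. The lowest row total was 17, and columns of per-sample values left unused numbered 0. Genes and coordinates (1-based) were matched to GENCODE M21, which held 22480 of the IDs.

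Tests used edgeR 4.0.16 in R 4.3.3: quasi-likelihood F test, robust, TMM scaling, filterByExpr with a minimum count of 10, Benjamini-Hochberg adjustment. The 9 libraries of Experiment 1 (21210 genes tested), the 12 of Experiment 2 (21505) and all 21 for differences of effects (22258) were fitted separately. Library totals were 29.6 to 57.9 M counts, so genes under 1 CPM rest on few reads. The fit was tested on simulated data. Alternatives were RLE size factors, DESeq2 1.42.0, filters on low counts, a replicate block, single libraries left out, fits of 2 groups and a fold minimum.

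The genes and lists were chosen with earlier results of these data known. Named were all 10 genes, Trim71 and Ago2, up to 3 called genes per list and comparison that changed most (mean log2 CPM not below 0), and the 5 genes most like Plxnb2 and Sema3f. Of the marker genes listed, Mesp1 and Postn were not analysed here.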

Additional observations from a re-analysis of the deposited data

Results flagged for a closer look

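A difference in effect between the experiments, tested with edgeR's quasi-likelihood test on all 21 libraries, was called for 3 of the 10 genes. For Sema6a the Trim71 effect in Experiment 1 minus that in Experiment 2 was -2.67 (SE 0.69, adjusted p = 0.013), with 2 to 7 counts a library in Trim71KO. For Nrp1 it was -0.85 (SE 0.21, adjusted p = 0.0089). For Sema3f the Ago2 effect in Experiment 1 minus that in Experiment 2 was 0.77 (SE 0.21, adjusted p = 0.049). That call held under 5 of 17 alternatives, and its contrast contains T6B_MUT, part of the contrast that chose the gene. The controls of the experiments differ in plasmid, and Ago2KO_empty replicate 2 went against its label for Ago2.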

How the results depend on the processing

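Counts of the 10 genes called kept within 1.5 times of the reported value in most settings. A minimum of 0.5 for the absolute log2 fold change left 2 in Trim71KO against W, 1 in Ago2KO against W and 2 in Trim71KO_empty against T6B_MUT. Fits of only the 2 groups compared gave 5 in T6B_WT, 3 in Ago2KO_empty and 3 between Trim71KO_empty and the libraries labelled Ago2KO_empty. With a CPM over 1 in 3 libraries, 3 were called between Trim71KO and Ago2KO and 0 in the difference of Ago2 effects, where RLE size factors also gave 0. With single libraries left out, counts were 3 to 8 in Ago2KO_empty against T6B_MUT, 3 to 5 between Trim71KO and Ago2KO and 3 to 6 between Trim71KO_empty and Ago2KO_empty. They were 0 to 1 in the difference of Ago2 effects and 1 to 2 in that of T6B and Ago2KO. In the difference of Ago2 effects, the 1 gene was Plxna1 without Ago2KO_empty replicate 3 (edgeR adjusted p = 0.043). It was Sema3f without Ago2KO_empty replicate 2 (adjusted p = 0.016). The cause was not tested.

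Small changes that were not called turned sign without 1 library: in Ago2KO against W, Plxnb1 ranged from -0.0069 to 0.072, Sema3f from -0.23 to 0.017, Sema4d from -0.078 to 0.039 and Sema6a from -0.26 to 0.40. In Trim71KO_empty Plxna1 ranged from -0.032 to 0.10, and in Ago2KO_empty Sema4d from -0.13 to 0.67. Sema4d in Ago2KO was 0.0019 with a CPM over 1 in 3 libraries.

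Over all genes, T6B_WT against T6B_MUT had 3437 calls, 5632 in a fit of 2 groups and 2045 without T6B_MUT replicate 1. Ago2KO_empty against T6B_MUT had 6201, 3894 without T6B_MUT replicate 1 and 3923 without Ago2KO_empty replicate 1. The difference of Ago2 effects had 473, and 269 to 1634 with single libraries left out. Same-numbered libraries correlated between -0.65 and 0.66 in their deviations. Libraries of unlike number were not compared, so this cannot settle whether the numbers pair them, and the labels do not say. With the replicate block, the genes called numbered 4, 3, 3, 5 and 6 in Trim71KO, Ago2KO, T6B_WT, Trim71KO_empty and Ago2KO_empty, 5 between Trim71KO and Ago2KO and 5 between Trim71KO_empty and Ago2KO_empty. In the differences of Trim71, of Ago2 and of T6B and Ago2KO effects they numbered 2, 1 and 2. Sema6a in Trim71KO_empty was gained (adjusted p = 0.034). Over all genes the block gave 6886, 3831, 3247, 5801 and 5976 calls in the 5 comparisons with a control. Depth limits Sema6a, Plxnd1 and Nrp1 most.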
